A study of Homo sapiens with 16 samples.

Results

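A set of 8 genes that mark or maintain blood stem and progenitor cells was followed in 2 human leukaemia lines: the receptors KIT and FLT3, the surface proteins CD34 and PROM1, the transcription factors MYB, ERG and SOX4, and the RNA-binding protein MSI2. They were taken by symbol from a table of 60603 genes, and all 8 were found. Total RNA had been profiled in 16 libraries, 8 from SKNO-1 and 8 from U-937. Treatments lasted 24 h and were DMSO as the vehicle, ATRA (all-trans retinoic acid, 0.1 µM), Corin (0.1 µM) or the combination of ATRA and Corin at those doses, and every treatment had 2 libraries per line. ATRA activates retinoic acid receptors, and Corin blocks the CoREST complex through both its demethylase LSD1 and its deacetylases HDAC1 and HDAC2. The myeloid line SKNO-1 has the fusion gene RUNX1-RUNX1T1. The cells of U-937 resemble monocytes. The labels give GM-CSF (10 ng/mL) in the medium of SKNO-1 alone, in all its groups, so line and medium cannot be told apart. Each line is a single established culture, and the labels do not say whether the 2 libraries of a group came from separate cultures. The p-values therefore measure the spread between these libraries, which may be technical.

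KIT binds stem cell factor and FLT3 binds FLT3 ligand, and signals from both sustain survival and division of early blood cells. CD34 is a sialomucin and PROM1 (CD133) a membrane glycoprotein, and both are used to sort stem and progenitor cells. MYB, the ETS factor ERG and the HMG-box factor SOX4 keep progenitor programmes active and are expressed in many myeloid leukaemias, while MSI2 controls translation and is needed for stem cell self-renewal. In normal marrow these genes are turned down as myeloid cells mature, and ATRA is known as an agent that drives maturation of some leukaemias.

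Promoter sequences are shown for 3 of the genes: KIT and CD34, which moved in opposite directions with Corin in SKNO-1, and SOX4, whose response to ATRA plus Corin had opposite signs in the lines. They are the 250 bases before the RefSeq start on GRCh38.p14, read 5′ to 3′ on the gene's strand. Capitals mark matches, on either strand, to any of 5 short motifs: AGGTCA (the core hexamer of nuclear receptors, which include the retinoic acid receptors), TGTGGT (RUNX), GATAA (GATA factors), GGGCGG (the GC box of SP1 and KLF factors) and TATAAA (the TATA box).
KIT, chr4:54657707-54657956, plus strand: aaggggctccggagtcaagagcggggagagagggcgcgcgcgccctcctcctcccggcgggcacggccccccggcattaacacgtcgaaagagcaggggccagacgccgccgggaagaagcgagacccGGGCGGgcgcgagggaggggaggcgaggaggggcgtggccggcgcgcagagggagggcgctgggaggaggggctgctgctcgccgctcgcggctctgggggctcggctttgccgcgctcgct
CD34, chr1:207911126-207911375, minus strand: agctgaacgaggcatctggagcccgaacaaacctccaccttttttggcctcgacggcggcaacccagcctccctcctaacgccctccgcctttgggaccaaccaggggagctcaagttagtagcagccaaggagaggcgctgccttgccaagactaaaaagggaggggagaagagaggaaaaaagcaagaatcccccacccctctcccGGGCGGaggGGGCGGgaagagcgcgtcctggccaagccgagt
SOX4, chr6:21593501-21593750, plus strand: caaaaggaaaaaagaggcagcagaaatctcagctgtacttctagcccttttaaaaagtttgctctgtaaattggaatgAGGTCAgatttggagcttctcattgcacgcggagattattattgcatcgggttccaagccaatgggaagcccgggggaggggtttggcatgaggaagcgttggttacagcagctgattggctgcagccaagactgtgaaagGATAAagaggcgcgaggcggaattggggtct
The KIT window held 1 GC box and the CD34 window held 2. The SOX4 window held 1 nuclear receptor hexamer and 1 GATA match, and no GC box. Over all 8 genes RefSeq gave 15 such windows, because PROM1, ERG and MSI2 have several starts. The nuclear receptor hexamer occurred in windows of 2 genes (SOX4 and MSI2), a GATA match in those of 2 (SOX4 and ERG) and a GC box in those of 6. By window, 2 of the 15 held the nuclear receptor hexamer, 3 a GATA match and 6 a GC box. The ERG windows with a GATA match overlap and hold the same site, which is thus counted more than once. No window held the RUNX or the TATA letters. Among 35116 RefSeq windows of the same length, 12.1% held AGGTCA, 11% TGTGGT, 20.4% GATAA, 42.6% GGGCGG and 10.7% TATAAA. A match describes the letters only.

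The libraries' depth, as the sum of the authors' estimated counts, ran from 28.4 M to 37.8 M. Levels are CPM, counts scaled to TMM-adjusted library totals, with mean ± SD where given (n = 2). Changes are log2 fold changes with a standard error (SE) worked back from the F of edgeR's quasi-likelihood test. A gene is called changed where the Benjamini-Hochberg adjusted p over all genes of the fit is under 0.05. The SKNO-1 DMSO libraries stood further apart than other pairs, with an SD of their log2 difference of 0.361 against 0.108 to 0.208 in the other 7 groups, and the difference followed GC content (r = 0.796 across 9330 genes, which are not independent). Each SKNO-1 comparison with DMSO carries that spread. All groups of a line share the estimate of spread, so it also enters the tests of the other SKNO-1 comparisons. On the TPM scale the median gene moved by -0.41 with both agents in SKNO-1, by -0.54 with both and -0.23 with ATRA in U-937, and by at most 0.08 in size in the other comparisons with DMSO. The changes given here are on the TMM scale, that is, relative to the median gene. Whether counting used strand is not given in the sources used here. The overlapping genes held few counts over all libraries, such as 7 for MYB-AS1 against 329530 for MYB, and 768 for the largest of those within MSI2 against 26460. The leukocyte gene PTPRC was at 147 CPM in SKNO-1 and 216 CPM in U-937 under DMSO, and the granule gene MPO was at 3136 CPM in SKNO-1 but at 0.198 CPM in U-937. In these bulk samples, fewer cells that express a gene and less RNA per cell cannot be told apart.

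Under DMSO, MYB and MSI2 were not called different between the lines, whereas KIT, FLT3, ERG and SOX4 were lower in U-937. MYB was the most abundant of the 8 per unit length in each line, at 201 ± 55.5 TPM (the authors' unit, scaled for transcript length and depth) in SKNO-1 and 254 ± 9.72 TPM in U-937. In SKNO-1 KIT followed at 86.4 ± 25.3 TPM, then SOX4 at 31.4 ± 11.4, ERG at 22.1 ± 5.76, MSI2 at 16.8 ± 5.77 and FLT3 at 6.65 ± 1.87 TPM. SOX4, ERG and MSI2 lie within their spread of each other in that order. In U-937 MSI2 came second at 17.9 ± 0.509 TPM, before SOX4 at 7.27 ± 0.099, ERG at 1.77 ± 0.127, FLT3 at 1.19 ± 0.0141 and KIT at 0.2 ± 0.0424 TPM. CD34 was at 0.09 ± 0.0141 TPM in SKNO-1 and had 0 counts in both U-937 DMSO libraries, and PROM1 had 0 counts in all 4 DMSO libraries.

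Of the 6 genes that passed the filter on low counts in each line, 4 were called lower in U-937 and 2 were not called, where 64.8% of all 19872 genes were called in either direction (31.7% higher, 33.1% lower). KIT was 517-fold lower in U-937 (log2 -9.01, SE 0.146, adjusted p = 1.49e-18), ERG 13.7-fold, FLT3 7.31-fold and SOX4 5.32-fold. CD34 had 18 counts over the SKNO-1 DMSO pair and 0 over the U-937 pair, which is at least 5.55-fold lower when the U-937 pair is set to 3 counts in all. It entered the joint fit through its SKNO-1 counts alone, so no test is given for it between the lines. MYB differed by a log2 of 0.01 (SE 0.0857, adjusted p = 0.929) and MSI2 by 0.01 (SE 0.0992, adjusted p = 0.922). With library totals in place of TMM the median gene shifted by 0.18 between the lines and MYB became 0.19 (adjusted p = 0.0328).

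**Figure D1:**
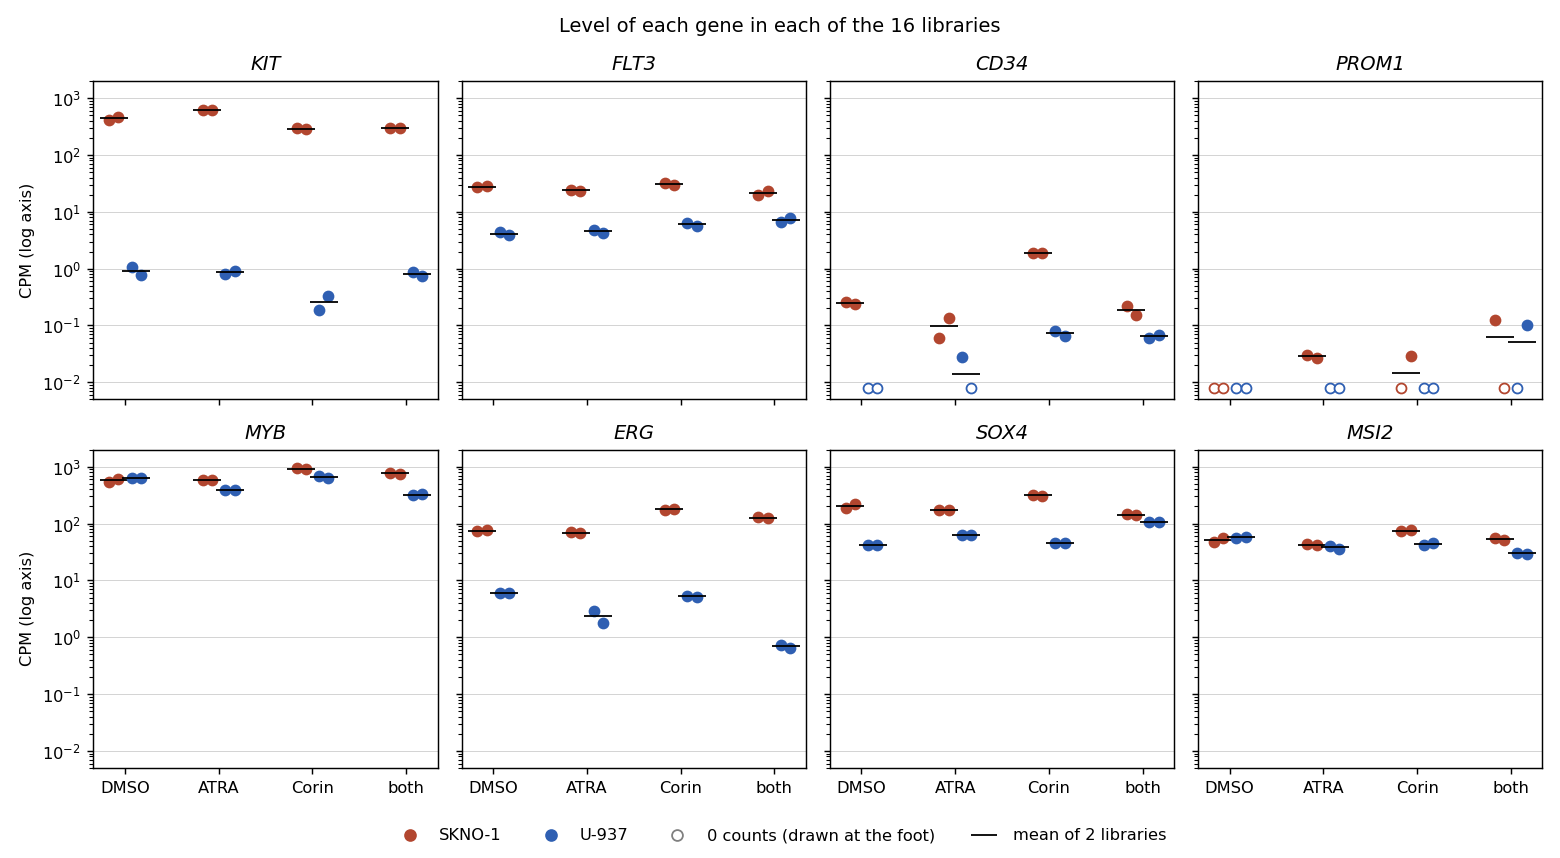
CPM of each of the 8 genes (log axis) in each of the 16 libraries, by treatment, with SKNO-1 in red and U-937 in blue; bars mark the mean of 2 libraries and open circles at the foot mark libraries with 0 counts. KIT sits between 282 and 631 CPM in SKNO-1 and between 0.186 and 1.07 CPM in U-937, while MYB and MSI2 are at similar heights in both lines under DMSO.

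KIT, the stem cell factor receptor (ENSG00000157404.15, chr4:54657267-54740783, GRCh38, plus strand), was moved by the agents in opposite directions in SKNO-1. Its libraries read 419 and 459 CPM with DMSO, 631 and 626 with ATRA, 297 and 282 with Corin, and 300.5 and 300.3 with both. The ATRA libraries were above, and the Corin and combined libraries below, both DMSO libraries. ATRA raised KIT by a log2 of 0.52 (SE 0.0606, adjusted p = 0.00174), which is 1.43-fold, and Corin lowered it by 1.51-fold (log2 -0.60, SE 0.0608, adjusted p = 0.000245). With both agents KIT was 1.46-fold below DMSO (log2 -0.55, SE 0.0608, adjusted p = 0.000266) and 2.09-fold below ATRA alone (log2 -1.06, SE 0.0612, adjusted p = 1.33e-05). Its 2 libraries lay just above the Corin pair, a difference that was not called (log2 0.05, SE 0.0607, adjusted p = 0.59) but was once the GC trend was removed (0.15, adjusted p = 0.0295). Fitted on its 4 libraries alone, the rise with ATRA had an adjusted p of 0.0744.

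In U-937 KIT was near the limit of detection. The DMSO libraries held 34 and 23 counts, the ATRA libraries 29 and 30, the Corin libraries 7 and 10, and the combined libraries 29 and 22. The 2 Corin libraries were the low ones and did not overlap with any other group. Corin against DMSO gave a log2 of -1.88 (SE 0.461, adjusted p = 0.007), a count ratio of 0.269 with an exact 95% interval from 0.146 to 0.468 that covers counting error only. This call was lost without Corin replicate 1 (log2 -1.51, adjusted p = 0.093) or DMSO replicate 1 (log2 -1.64, adjusted p = 0.079), and in the authors' deposited table the adjusted p-value was 0.124. Both agents exceeded Corin alone by a log2 of 1.69 (SE 0.467, adjusted p = 0.00326), which was lost without Corin replicate 1 (1.31, adjusted p = 0.053). ATRA (log2 -0.12, SE 0.395) and the combination (-0.19, SE 0.398) were not called against DMSO.

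FLT3, the FLT3 ligand receptor (ENSG00000122025.14, chr13:28003274-28100592, minus strand), fell with the combination in SKNO-1 and rose with it in U-937. In SKNO-1 it was at 27.2 and 28.1 CPM with DMSO, 24.1 and 23.6 with ATRA, 32.3 and 30.1 with Corin, and 19.5 and 23.2 with both. The combined libraries were the lowest and the Corin libraries the highest, with no overlap between these groups. The combination lowered FLT3 by a log2 of -0.37 (SE 0.1, adjusted p = 0.0168) against DMSO and by -0.55 (SE 0.1, adjusted p = 0.0141) against Corin. The first call was lost when the trend with GC content was removed (-0.19, adjusted p = 0.0693), in a fit of the 4 libraries (adjusted p = 0.0908) and without combined replicate 1 (-0.26, adjusted p = 0.126). The second was lost without combined replicate 1 (-0.43, adjusted p = 0.13), Corin replicate 1 (-0.50, adjusted p = 0.152) or Corin replicate 2 (-0.60, adjusted p = 0.0806).

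In U-937 FLT3 read 4.42 and 3.83 CPM with DMSO, 4.77 and 4.31 with ATRA, 6.39 and 5.58 with Corin, and 6.48 and 7.87 with both. Both agents raised it 1.73-fold against DMSO (log2 0.79, SE 0.19, adjusted p = 0.000805) and 1.58-fold against ATRA (log2 0.66, SE 0.187, adjusted p = 0.00551). The difference from ATRA was lost without combined replicate 2 (0.51, adjusted p = 0.072) or ATRA replicate 2 (0.59, adjusted p = 0.0628). Corin alone gave 0.54 (SE 0.191, adjusted p = 0.066), which was called once the GC trend was removed (0.59, adjusted p = 0.0309). The combined effect differed between the lines by a log2 of 1.21 (SE 0.194, adjusted p = 4.79e-05).

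CD34 (ENSG00000174059.16, chr1:207880972-207911402, minus strand) was scarce everywhere, and rose with Corin alone in SKNO-1. Its counts there were 9 and 9 with DMSO, 2 and 5 with ATRA, 65 and 64 with Corin, and 7 and 5 with both agents. The Corin pair stood apart from all other libraries, and the combined pair lay below the DMSO pair. Corin raised CD34 7.52-fold (exact 95% interval 4.58 to 13.1, counting error only, log2 2.91, SE 0.334). When ATRA was present with Corin, CD34 was 10.2-fold lower than with Corin alone (log2 -3.35, SE 0.357, 12 against 129 counts). CD34 passed the filter on low counts in SKNO-1 through its Corin pair alone, so no adjusted p is given for either comparison. Against DMSO the combination gave a log2 of -0.44 (SE 0.451, adjusted p = 0.513) and ATRA -1.32 (SE 0.5, adjusted p = 0.209), neither of them called. Even with Corin the level was 0.535 ± 0.00707 TPM. In U-937 the 8 libraries held between 0 and 3 counts of CD34 each, too few to be tested within the line.

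PROM1 (ENSG00000007062.11, chr4:15963076-16084378, minus strand) was not measurable. It had 10 counts over all 16 libraries, at most 4 in 1 library, against 49 counts for FGFBP2, which overlaps it on the same strand, and it passed no filter. Both libraries had 0 counts in SKNO-1 with DMSO and in U-937 with DMSO, ATRA or Corin. A count of 0 in both libraries of a group allows up to 3 counts over the pair. Over the summed depth of the pair this is 0.0412 CPM in the SKNO-1 DMSO group and 0.0505 CPM in the U-937 DMSO group.

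MYB (ENSG00000118513.19, chr6:135181308-135219173, plus strand), which keeps progenitors dividing, rose with Corin in SKNO-1 and fell with ATRA in U-937. The SKNO-1 libraries read 548 and 605 CPM with DMSO, 588 and 577 with ATRA, 939 and 913 with Corin, and 774 and 759 with both. ATRA and DMSO overlapped, while the other 2 groups lay above both. Corin raised MYB 1.6-fold (log2 0.68, SE 0.0606, adjusted p = 0.000126) and the combination 1.33-fold (log2 0.41, SE 0.0604, adjusted p = 0.00105). On the TPM scale, where the median gene moved by -0.41 in that comparison, the combined change in MYB was 0.05, and the authors' deposited table gives an adjusted p-value of 0.0732. The combination was below Corin alone by a log2 of -0.27 (SE 0.0604, adjusted p = 0.0295). That call was lost when any of the 4 libraries was left out (adjusted p between 0.133 and 0.221) and was 0.0644 with the replicate number as a block.

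In U-937 MYB read 627 and 643 CPM with DMSO, 395 and 390 with ATRA, 700.1 and 643 with Corin, and 315 and 332 with both. The DMSO and Corin libraries were high, the ATRA libraries lower and the combined libraries lowest, with no overlap between these 3 levels. ATRA lowered MYB 1.62-fold (log2 -0.69, SE 0.103, adjusted p = 7.99e-06) and the combination 1.96-fold (log2 -0.97, SE 0.104, adjusted p = 1.59e-08). The combination was 2.08-fold below Corin alone (log2 -1.05, SE 0.104, adjusted p = 5.33e-09), whereas its difference from ATRA (-0.28, SE 0.103, adjusted p = 0.0287) was lost without either ATRA library or combined replicate 1 (adjusted p 0.151 to 0.161). Corin alone gave 0.08 (SE 0.103, adjusted p = 0.675).

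ERG (ENSG00000157554.19, chr21:38380027-38661780, minus strand), an ETS factor of stem cells and endothelium, rose with Corin in SKNO-1 and fell with ATRA in U-937. In SKNO-1 it read 73.9 and 76.2 CPM with DMSO, 70.4 and 68.9 with ATRA, 174 and 181 with Corin, and 129 and 127 with both. The Corin libraries were highest, the combined libraries next, and the other 4 libraries lay close together. Corin raised ERG 2.36-fold (log2 1.24, SE 0.0559, adjusted p = 6.6e-06) and the combination 1.71-fold (log2 0.77, SE 0.0556, adjusted p = 3.32e-05), which is 1.38-fold below Corin alone (log2 -0.47, SE 0.0550, adjusted p = 0.00182).

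In U-937 ERG counts were 192 and 176 with DMSO, 107 and 59 with ATRA, 199 and 159 with Corin, and 25 and 19 with both. The combined pair was the lowest and did not overlap with the ATRA pair, which lay below the rest. ATRA lowered ERG 2.52-fold (log2 -1.33, SE 0.234, adjusted p = 6.34e-05) and the combination 8.58-fold (log2 -3.10, SE 0.275, adjusted p = 6.45e-10, count ratio 0.117 with an exact 95% interval of 0.0834 to 0.16). The combination was also 3.41-fold below ATRA alone (log2 -1.77, SE 0.287, adjusted p = 1.76e-05). Corin alone gave -0.19 (SE 0.222, adjusted p = 0.645).

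SOX4 (ENSG00000124766.6, chr6:21593751-21598619, plus strand), a factor of progenitors, fell with the combination in SKNO-1 and rose with it in U-937. In SKNO-1 its libraries read 190 and 223 CPM with DMSO, 173 and 175 with ATRA, 325 and 306 with Corin, and 146 and 143 with both. The Corin pair was highest and the combined pair lowest, and neither overlapped with DMSO. Corin raised SOX4 1.53-fold (log2 0.61, SE 0.0801, adjusted p = 0.000828), and the combination lowered it 1.43-fold against DMSO (log2 -0.52, SE 0.0804, adjusted p = 0.00137) and 2.18-fold against Corin (log2 -1.13, SE 0.0810, adjusted p = 0.000162). ATRA alone gave -0.25 (SE 0.0801, adjusted p = 0.137), or -0.41 without DMSO replicate 1 and -0.17 without DMSO replicate 2. The difference of the combination from ATRA (-0.27, SE 0.0804, adjusted p = 0.0273) was lost on leaving out any of its 4 libraries (adjusted p 0.098 to 0.168).

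In U-937 SOX4 started lower, at 42.7 and 42.2 CPM with DMSO, and read 63.8 and 63.4 with ATRA, 45.7 and 45.0 with Corin, and 106 and 108 with both. The groups formed 3 levels, with DMSO and Corin lowest and the combination highest. ATRA raised SOX4 1.5-fold (log2 0.58, SE 0.0952, adjusted p = 2.6e-05) and the combination 2.52-fold (log2 1.33, SE 0.0957, adjusted p = 1.43e-11), 1.68-fold above ATRA alone (log2 0.75, SE 0.0937, adjusted p = 4.17e-07). Corin alone gave 0.09 (SE 0.0957, adjusted p = 0.589).

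MSI2 (ENSG00000153944.11, chr17:57255851-57684689, plus strand), a regulator of translation, rose with Corin in SKNO-1 and fell with each treatment in U-937. The SKNO-1 libraries read 47.3 and 56.2 CPM with DMSO, 42.9 and 41.5 with ATRA, 74.3 and 75.7 with Corin, and 56.2 and 52.4 with both. Only the Corin pair was above all others, and the combined pair overlapped with DMSO. Corin raised MSI2 1.45-fold (log2 0.53, SE 0.0898, adjusted p = 0.00264). The combination was 1.38-fold below Corin (log2 -0.47, SE 0.0899, adjusted p = 0.0176) and 1.29-fold above ATRA (log2 0.36, SE 0.0907, adjusted p = 0.0127). The first of these was lost without any 1 of its 4 libraries (adjusted p 0.0994 to 0.168), and the second without combined replicate 1 (0.0961), ATRA replicate 1 (0.0509) or ATRA replicate 2 (0.0697).

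In U-937 MSI2 read 55.7 and 58.7 CPM with DMSO, 40.2 and 35.9 with ATRA, 41.8 and 45.0 with Corin, and 30.7 and 29.4 with both. All treated libraries were below the DMSO pair, and the combined pair was lowest. ATRA lowered MSI2 1.5-fold (log2 -0.59, SE 0.102, adjusted p = 5.83e-05), Corin 1.32-fold (log2 -0.40, SE 0.102, adjusted p = 0.00963) and both 1.9-fold (log2 -0.93, SE 0.104, adjusted p = 3.57e-08). The Corin change was lost without Corin replicate 1 (adjusted p = 0.0752) or DMSO replicate 2 (0.101). The further fall from ATRA to the combination (-0.34, SE 0.104, adjusted p = 0.0094) was lost without ATRA replicate 1 (0.152) or combined replicate 2 (0.0585).

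**Figure D2:**
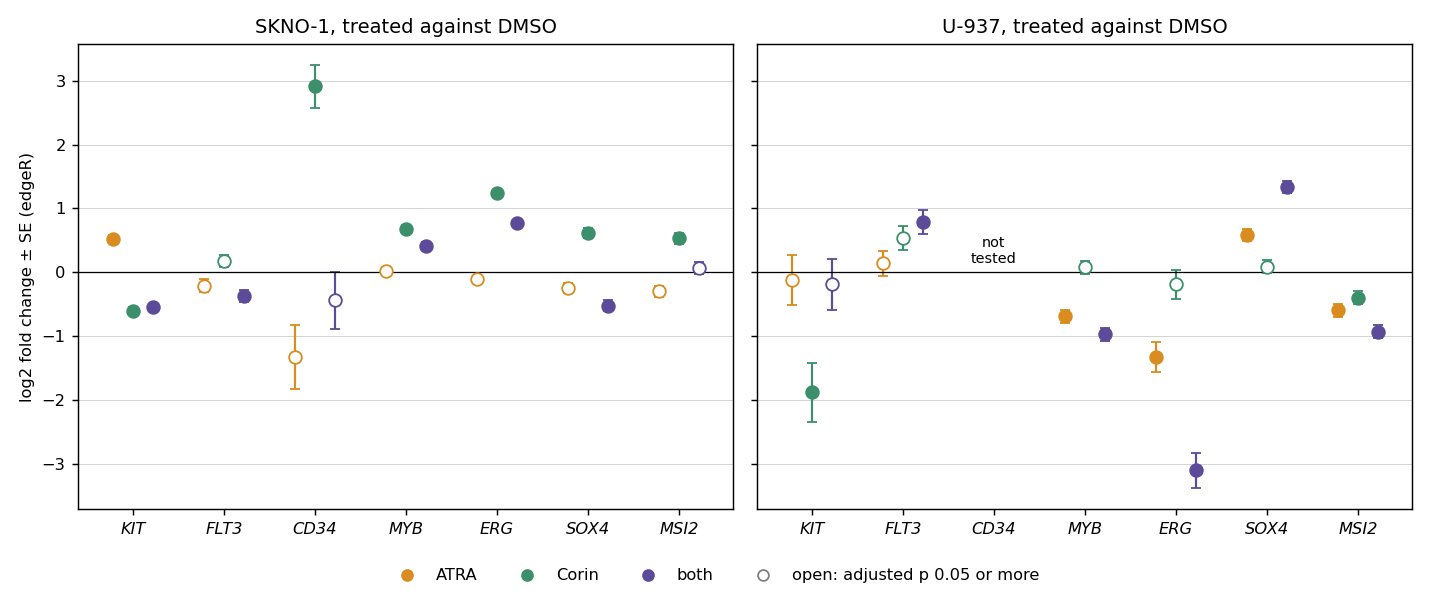
Log2 fold change ± SE (edgeR) of 7 genes against DMSO in SKNO-1 (left) and U-937 (right), for ATRA (orange), Corin (green) and both (purple), with CD34 not tested in U-937; filled points have an adjusted p under 0.05 and open points do not. Corin points lie above 0 for CD34, MYB, ERG, SOX4 and MSI2 in SKNO-1, and in U-937 the combination takes ERG to -3.10 and SOX4 to 1.33. CD34 passed the filter in SKNO-1 through its Corin libraries alone.

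Counted together in SKNO-1, ATRA alone changed 1 of the 7 tested genes (KIT, higher), where 6.76% of all 17479 genes were called (2.96% higher, 3.79% lower). Corin changed 6, with 5 higher (CD34, MYB, ERG, SOX4, MSI2) and 1 lower (KIT), where 37.9% of all genes were called (20.5% higher, 17.3% lower). CD34 is counted here and in the comparison with Corin below, though it was tested through its Corin libraries alone. The combination changed 5, with MYB and ERG higher and KIT, FLT3 and SOX4 lower, where 46.7% of all genes were called (24.7% higher, 22% lower). Against Corin alone the combination lowered 6 genes and left KIT uncalled, where 10.4% of all genes were called (4.82% higher, 5.6% lower). With each of the 4 libraries left out in turn, the change stayed between -0.50 and -0.44 for ERG and between -1.17 and -1.08 for SOX4. The calls of FLT3, MYB and MSI2 were lost in some or all of these fits. Against ATRA alone the combination raised 3 and lowered 2, where 44.8% were called (23% higher, 21.8% lower).

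In U-937, where 6 genes were tested, ATRA changed 4, with MYB, ERG and MSI2 lower and SOX4 higher, where 41.8% of all 17717 genes were called (21.7% higher, 20.1% lower). Corin changed 2 (KIT and MSI2, lower), where 12.9% were called (8.55% higher, 4.4% lower). The combination changed 5, with ERG, MYB and MSI2 lower and SOX4 and FLT3 higher, where 65.3% were called (33.1% higher, 32.2% lower). Against ATRA it lowered 3 and raised 2 (47.4% of all genes called, 22.5% higher and 24.8% lower), and against Corin it lowered 3 and raised 2 (60.5% called, 29.9% higher and 30.6% lower). These comparisons share their DMSO, ATRA and Corin libraries.

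Whether the agents added up was tested as the log2 effect of both minus the sum of the single effects. In SKNO-1 only SOX4 was called among the 7 tested, where 0.463% of all genes were called (0.315% higher, 0.149% lower). Its single effects summed to 0.36 and the observed effect was -0.52, a departure of -0.88 (SE 0.113, adjusted p = 0.0258). That call was lost with library totals (adjusted p = 0.052), with the GC trend removed (0.0586), with a replicate block (0.086) and without any 1 of the 6 treated libraries (0.163 to 0.206). The 7 departures in SKNO-1 were all negative and share the same DMSO libraries, where the median over all genes was -0.01. The share of all genes with a negative departure was not counted. CD34 had -2.03 (SE 0.669), but it passed the filter through its Corin pair alone, and Corin enters the departure with a minus sign. No adjusted p is given for it. The rest ran from -0.88 for SOX4 to -0.17 for MSI2 (SE 0.127, adjusted p = 0.539). KIT departed by -0.47 (SE 0.0858, adjusted p = 0.0746), a call with DESeq2 (adjusted p = 0.0125), without a filter (0.000924) and with the GC trend removed (0.00472). Without DMSO replicate 1 there were 3 calls and without DMSO replicate 2 there were 5, so the count depended on single control libraries.

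In U-937 departures were called for 3 of 6 genes, where 23.4% of all genes were called (8.09% higher, 15.3% lower). ERG was lower than the sum of its single effects (departure -1.58, SE 0.365, adjusted p = 0.00234), and SOX4 rose by 0.66 more (SE 0.134, adjusted p = 0.000681). KIT departed by 1.80 (SE 0.613, adjusted p = 0.0348), a value that rests on the 17 counts of the Corin pair. It was lost with library totals (adjusted p = 0.0528), with a replicate block (0.0509), and without combined replicate 1 (0.0751), ATRA replicate 1 (0.0989), ATRA replicate 2 (0.0647), Corin replicate 1 (0.157) or DMSO replicate 1 (0.133). MYB departed by -0.36 (SE 0.146, adjusted p = 0.0771) and was called with DESeq2 (0.0235), library totals (0.00517) and the GC trend removed (0.0281). MSI2 (0.06, SE 0.146) and FLT3 (0.12, SE 0.266) were not called.

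**Figure D3:**
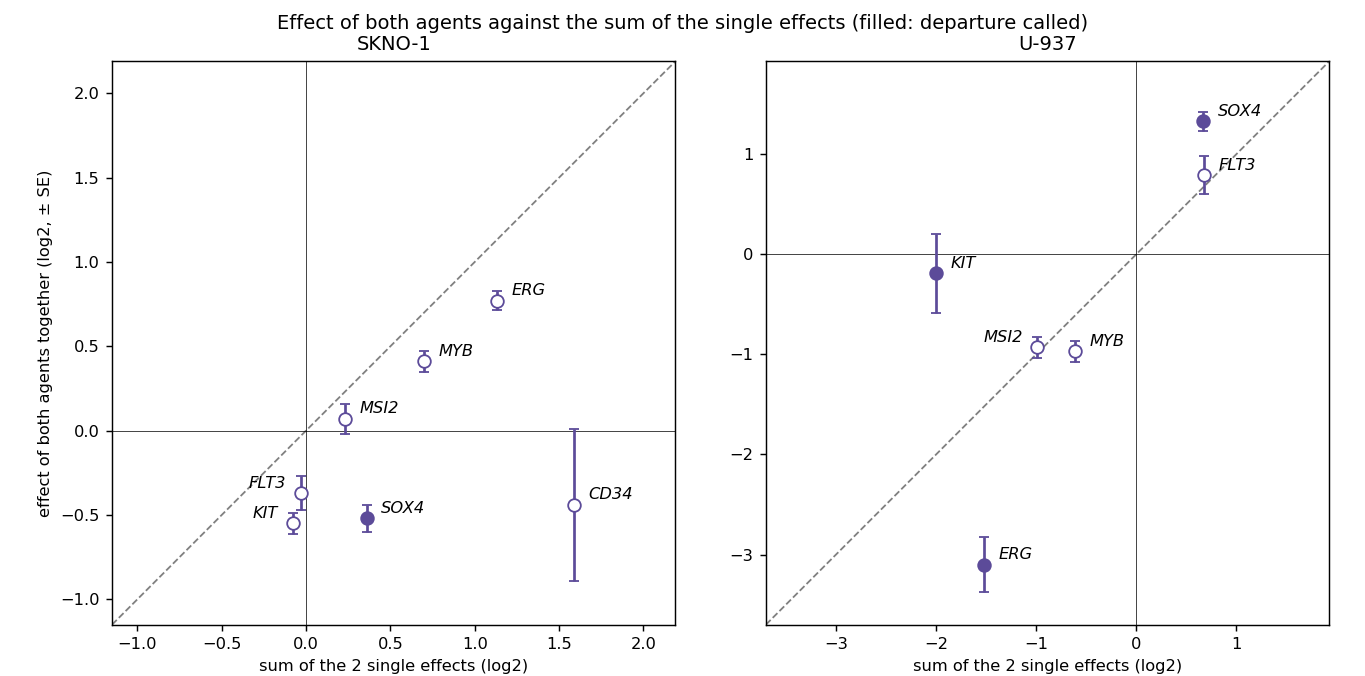
Effect of both agents against DMSO (vertical, log2 ± SE) plotted on the sum of the single effects (horizontal, log2) in each line, with the dashed line marking equality and filled points marking a called departure. In SKNO-1 all 7 genes lie below the line, and CD34 passed the filter there through its Corin libraries alone. In U-937 ERG lies below the line by 1.58, and SOX4 and KIT lie above it.

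The treatment effects differed between the lines in a joint fit of all 16 libraries. Of the 6 genes tested in each line, 3 were called for ATRA (19.4% of all 19872 genes, 10.6% higher and 8.81% lower), with MYB and ERG lower and SOX4 higher in U-937 relative to SKNO-1. For Corin, 5 were called (12.8% of all genes, 5.28% higher and 7.49% lower), all in the direction of a lower response in U-937: ERG, KIT, MSI2, MYB and SOX4. For both agents, 5 of the 6 were called, with FLT3 and SOX4 higher and MYB, ERG and MSI2 lower in U-937 (40.6% of all genes, 17.9% higher and 22.7% lower). ERG differed there by a log2 of -3.83 (SE 0.224, adjusted p = 1.44e-10) and SOX4 by 1.90 (SE 0.125, adjusted p = 6.45e-10). KIT was not called in that comparison (0.40, SE 0.258, adjusted p = 0.266).

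Partner genes of the receptors were read from a list of 5. KITLG, the KIT ligand, was called in no comparison with DMSO in SKNO-1 and fell in U-937 with Corin (log2 -1.48, SE 0.36, adjusted p = 0.00665) and with both (-1.95, SE 0.382, adjusted p = 0.000101). FLT3LG, the FLT3 ligand, had few and uneven DMSO counts, 21 and 7 in SKNO-1 and 35 and 9 in U-937. With both agents its change was 1.53 in SKNO-1 (SE 0.471, adjusted p = 0.0287), or 0.89 without DMSO replicate 2 (adjusted p = 0.0784) and 2.60 without DMSO replicate 1. In U-937 it was 1.11 (SE 0.401, adjusted p = 0.019), or 0.47 without DMSO replicate 2 (adjusted p = 0.306) and 2.32 without DMSO replicate 1. Both calls were also lost without combined replicate 2 (adjusted p = 0.114 and 0.0519), and in SKNO-1 without combined replicate 1 (0.09). CSF1R, the related receptor of monocytes, rose in all 6 comparisons with DMSO, by 1.79 with ATRA, 3.45 with Corin and 4.98 with both in SKNO-1, and by 2.68, 3.66 and 5.29 in U-937. The rise with ATRA in SKNO-1 was lost without ATRA replicate 2 (1.19, adjusted p = 0.157), and the KITLG change with Corin without U-937 DMSO replicate 2 (-1.32, adjusted p = 0.0747). The list's median was 1.53 with both agents in SKNO-1, where all genes had 0.05, and 1.70 in U-937, where all genes had 0.03.

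Among 15 genes of KIT and FLT3 signalling, Corin raised 6 and lowered 2 in SKNO-1 and raised 2 in U-937, and the combination raised 4 and lowered 4 in SKNO-1 and raised 8 and lowered 3 in U-937. Over all genes the shares called in SKNO-1 and U-937 were 37.9% and 12.9% with Corin and 46.7% and 65.3% with both, against 8 and 2 of these 15 with Corin and 8 and 11 with both. With both agents SPRED1, an inhibitor of RAS signalling, rose by a log2 of 2.92 in SKNO-1. LYN, a kinase of the SRC family, rose by 0.97 in SKNO-1 and 2.59 in U-937, and the adaptor GAB2 by 1.15 and 1.14. DUSP6, a phosphatase of the MAP kinases, fell by 0.55 in SKNO-1 (log2 -0.55) and rose by 2.35 in U-937. The median of these 15 genes was -0.12 for SKNO-1 and 0.38 for U-937, against 0.05 and 0.03 over all genes.

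Of 10 relatives of the other members, 6 were tested in each line. With both agents in U-937, 5 were lower and none higher, with a median of -1.67. Over all genes in that comparison 32.2% were called lower and 33.1% higher. The CD34 relative PODXL had a log2 change of -4.15 there (SE 0.127), MYBL2 of -2.59 (SE 0.105), PODXL2 of -1.68 (SE 0.127) and MYBL1 of -1.66 (SE 0.144). In SKNO-1 the combination gave 1 higher (MYBL1, 1.81, SE 0.402) and 1 lower (PODXL, -0.41, SE 0.0704), where 24.7% of all genes were called higher and 22% lower.

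Of 13 stem cell transcription factors that work beside ERG and MYB, 10 were tested in each line. In SKNO-1 ATRA lowered 4 and raised none (GATA2 -1.13, IKZF2 -0.89, TAL1 -0.50, HHEX -0.34). Each of these calls was lost when at least 1 of the ATRA libraries was left out. Corin raised 4 and lowered 1 (LMO2 -1.27), and both lowered 5 and raised none. The Corin rises of GATA2 (0.49) and RUNX1 (0.52) were lost without either Corin library. Over all genes ATRA lowered 3.79%, Corin raised 20.5% and lowered 17.3%, and both lowered 22% and raised 24.7%. IKZF2 changed by 1.26 with Corin and by -0.55 with both, the latter lost without either combined library (adjusted p 0.0551 and 0.0591). In U-937 the combination lowered 7 and raised 2, where 32.2% of all genes were called lower and 33.1% higher. With it HLF was at -3.52 (SE 0.314), BMI1 at -1.41 (SE 0.107) and LYL1 at -0.87 (SE 0.134). GATA2 was near the floor there, with 5 and 4 counts against 9 and 20 with DMSO. Its change of -1.74 (SE 0.673) was -0.99 without DMSO replicate 2 (adjusted p = 0.354) and was lost without either combined library (adjusted p 0.0798 and 0.0802). With both agents the median of the 10 tested factors was -0.25 for SKNO-1 and -0.56 for U-937, against 0.05 and 0.03 over all genes. Of 6 MYB partners, the combination raised 1 in SKNO-1 (CEBPB, 2.06), and in U-937 raised 2 (CEBPB 2.61, TAF12 0.60) and lowered 3, led by KMT2A (-1.09) and MEN1 (-0.68). Over all genes it raised 24.7% in SKNO-1, and in U-937 raised 33.1% and lowered 32.2%.

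The 17-gene leukaemia stem cell score (LSC17), which holds CD34 itself, had 14 genes tested in SKNO-1 and 9 in U-937. Its genes were counted singly, without the score's weights and their signs. The score itself was not computed, so the counts and medians do not give its direction. Corin raised 8 and lowered 1 in SKNO-1 (median 0.75, all genes 0.00), and the combination raised 8 and lowered 2. The 8 raised by Corin include CD34, tested through its Corin libraries alone. Over all genes Corin raised 20.5% and lowered 17.3%, and the combination raised 24.7% and lowered 22%. MMRN1 rose by a log2 of 4.16 with Corin and 5.31 with both, and the adhesion receptor ADGRG1 by 2.76 and 1.69. ATRA alone lowered ADGRG1 there (log2 -2.50), by -3.79 without ATRA replicate 2 and -1.93 without ATRA replicate 1 (adjusted p = 0.119). In U-937 ATRA raised 1 and lowered 6 (median -1.19), and both raised 2 and lowered 5 (median -0.93). Of all genes in that line, ATRA raised 21.7% and lowered 20.1%, and both raised 33.1% and lowered 32.2%. With both agents in U-937, AKR1C3, an aldo-keto reductase, went from 1 and 6 counts to 238 and 226 (log2 6.02, SE 0.395, between 5.17 and 7.88 without 1 DMSO library). CDK6, a cell cycle kinase, had a log2 change of -2.03.

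Maturation markers rose beside these changes. With both agents 9 of 10 tested markers were called higher in SKNO-1 (median 3.68) and 9 of 9 in U-937 (median 4.39). Over all genes 24.7% and 33.1% were called higher there. The FCGR1A call in SKNO-1 (log2 0.36) was lost without either combined library. The integrin gene ITGAM rose by a log2 of 8.27 in SKNO-1 and 6.32 in U-937. With Corin alone, where CD34, MYB, ERG, SOX4 and MSI2 rose in SKNO-1, 9 markers were higher and 1 lower there. Over all genes 20.5% were called higher and 17.3% lower. CD14 and CYBB had no counts in the SKNO-1 DMSO libraries and entered the fit through treated libraries alone. The Corin calls of CD14, CYBB and CEBPE (log2 -1.08) were lost without either Corin library, and that of CD14 also without either DMSO library. The markers' summed level went from 361 and 375 CPM with DMSO to 913 and 874 CPM with Corin. With ATRA alone in SKNO-1 3 were higher and 3 lower, where 2.96% of all genes were called higher and 3.79% lower. The ATRA calls of ITGAM (log2 1.29), FCGR1A (-0.61) and LYZ (-0.40) were each lost without 1 of the ATRA libraries. The sum with ATRA was 695 and 676 CPM. With both agents it was 948 and 930 CPM. In U-937 the sum went from 287 and 319 CPM with DMSO to 1166 and 1169 with ATRA, 2578 and 2165 with Corin, and 4388 and 4825 with both.

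Other cell types use several of these genes, and their markers were read beside them. Of 6 mast cell and basophil markers, 4 were tested in SKNO-1, where ATRA lowered 3.79% and Corin raised 20.5% of all genes. ATRA lowered 3 of these markers and Corin raised 3 (FCER1A 3.48, HDC 1.85, CPA3 1.38). Their summed level ran from 2.08 to 38.7 CPM in SKNO-1, highest with Corin, where KIT was low, and TPSAB1 and MS4A2 had 0 to 9 counts in each SKNO-1 group. In U-937 the sum reached 38 CPM with Corin and was mostly TPSAB1. Among 6 endothelial markers KDR fell in SKNO-1 with Corin (-1.65) while PECAM1 (1.59) and TIE1 (2.95) rose, and the sum was 30.0 and 28.6 CPM with Corin against 15.3 and 18.3 with DMSO. In U-937 KDR had 0 counts in all groups, and the tested endothelial marker, PECAM1, rose by 2.22 with both agents, where ERG was lowest. Summed markers of fibroblasts and epithelium stayed under 1 CPM in each library, and those of erythroid cells lay between 0.735 and 2.89 CPM. Of 5 lymphocyte markers, MS4A1 had 0 counts in all groups and CD3E at most 1 in a library. Their sum lay between 1.38 and 4.17 CPM in SKNO-1 and between 75.5 and 143 CPM in U-937, where it was mostly NKG7. In U-937 3 were tested, and ATRA raised 2 and Corin and the combination 1 each. Of all genes in that line, the same treatments raised 21.7%, 8.55% and 33.1%. The part of such cells, or of maturation, in the members' values was not tested.

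**Figure D4:**
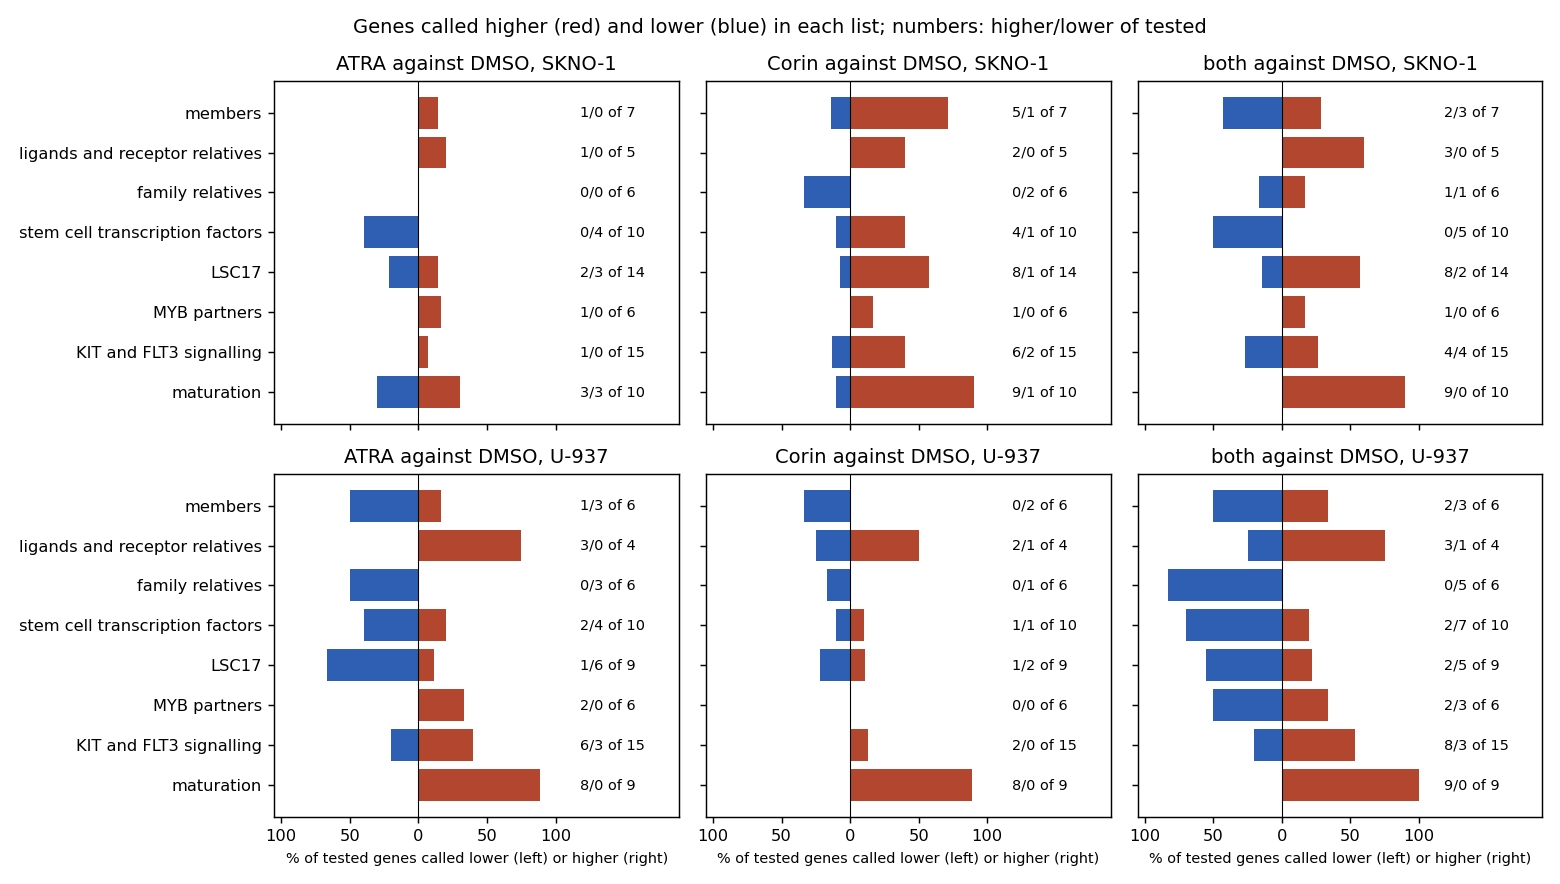
Share of the tested genes of each list (percent) called higher (red, right) or lower (blue, left) against DMSO, for the members and 7 lists, by agent and line; the numbers give genes higher and lower of those tested. Maturation markers reach 9 of 9 higher with both agents in U-937, where 5 of 6 family relatives and 7 of 10 stem cell transcription factors were lower. Over all genes in that comparison 33.1% were called higher and 32.2% lower.

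The genes whose log2 CPM followed each member most closely were found by Pearson correlation, given as a description. Over the 8 SKNO-1 libraries KIT was most like LSM11 (r = 0.997) and ZNF354B (0.996), and ERG most like JAML (0.997) and RCAN3 (0.995), among 10063 genes. Over 16 libraries, with each line centred on its own mean, MYB was most like RBFOX2 (0.964), SOX4 most like PTPRC (0.958), MSI2 most like POU4F1 (0.957) and FLT3 most like PAPSS1 (0.919), among 9176 genes. These libraries form 4 treatment groups a line and are not 8 or 16 independent points.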

How the data were processed

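RNA from 16 libraries (8 groups of 2) was analysed. Per the submitters' processing notes, the tools were Trimmomatic, STAR, RSEM, deepTools and DESeq2 on hg38, and versions and annotation release are not given in the sources used here. The authors deposited RSEM estimated counts for 60603 genes, of which 20.4% of positive values were not whole; these were rounded. The deposited TPM values are the authors' length-scaled RSEM levels and were used to order genes and as an alternative. The authors' deposited comparison tables give log2 fold changes and adjusted p-values for each treatment against DMSO, per the file headers, and are quoted only where named.

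Counts were tested with edgeR 4.0.16 (filterByExpr, TMM, robust quasi-likelihood F test, R 4.3.3), within each line (17479 and 17717 genes, 4 residual degrees of freedom) and jointly (19872 genes, 8 residual degrees of freedom). Log2 fold changes of single genes are unshrunken. Medians over a list or over all genes use the log2 fold changes of edgeR's test, which its prior count shrinks. The SE is the size of the unshrunken change divided by the square root of the test's F. Adjusted p is Benjamini-Hochberg over all genes of a fit. Ratios of low counts have exact conditional 95% intervals, which cover counting error only. The fits were tested on simulated data. Positions are from GENCODE 44, which matched 60261 genes; promoters are from RefSeq. Alternatives were DESeq2 1.42.0, library totals, no filter on low counts, removal of the GC trend, fits of the compared libraries alone, a replicate block, deposited TPM and leaving out each library.

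The named genes are the 8 members, up to 4 called genes per list and comparison in order of absolute log2 change, and the 2 genes most like a member by Pearson correlation of log2 CPM (at least 5 CPM, prior count 2). The members and lists were chosen with earlier results of these data known.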

Additional observations from a re-analysis of the deposited data

Results flagged for a closer look

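Treatment effects that differed between the lines were tested as interaction terms in edgeR's joint fit of 16 libraries, and each is the log2 effect in U-937 minus that in SKNO-1.

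For ATRA, the difference was -0.67 for MYB (SE 0.122, adjusted p = 0.000548), -1.18 for ERG (SE 0.188, adjusted p = 0.00015) and 0.87 for SOX4 (SE 0.124, adjusted p = 4.66e-05). MYB and ERG were called lower with ATRA in U-937 and were not called in SKNO-1.

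For Corin, the difference was -1.43 for ERG (SE 0.175, adjusted p = 1.5e-05), -0.93 for MSI2 (SE 0.142, adjusted p = 0.00017), -0.60 for MYB (SE 0.121, adjusted p = 0.00254), -0.51 for SOX4 (SE 0.125, adjusted p = 0.00959) and -1.30 for KIT (SE 0.328, adjusted p = 0.0127). The KIT difference was lost without U-937 Corin replicate 1 (-0.88, adjusted p = 0.254) or U-937 DMSO replicate 1 (-1.03, adjusted p = 0.154), and the SOX4 difference without SKNO-1 Corin replicate 1 (-0.45, adjusted p = 0.0531).

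For both agents, the difference was -3.83 for ERG (SE 0.224, adjusted p = 1.44e-10), 1.90 for SOX4 (SE 0.125, adjusted p = 6.45e-10), -1.34 for MYB (SE 0.122, adjusted p = 4.63e-08), -0.95 for MSI2 (SE 0.143, adjusted p = 2.39e-05) and 1.21 for FLT3 (SE 0.194, adjusted p = 4.79e-05). CD34 had an adjusted p of 0.0332, but it entered the joint fit through its SKNO-1 counts alone and held 4 against 0 counts in U-937, so this value is no evidence of a difference. SOX4 and FLT3 were called higher in U-937 and lower in SKNO-1, and ERG and MYB the other way round.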

How the results depend on the processing

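No called change reversed its direction under any alternative run. Of the members' values on deposited TPM, 43 of 65 moved by more than their SE, beside the shift of the median gene on that scale. In the other planned settings that kept all libraries of the comparison, 551 of 575 values kept direction and call, 11 lost the call and 13 gained it, and 21 uncalled values among all 1172 changed sign. The number of members called with ATRA in SKNO-1 (1) was 3 without a filter on low counts and 0 in a fit of the 4 libraries. Over all genes these fits called 1963 and 239, against 1181 in the main fit. The number of departures from additivity in SKNO-1 (1) was 2 with DESeq2, 0 with library totals, 2 without a filter, 2 with the GC trend removed and 0 with the replicate block. Over all genes these settings called 281, 73, 1445, 564 and 20 in that order, against 81 in the main fit. Wherever leaving out 1 library changed a member count that follows, the number called over all genes moved in the same direction. Whether the members differ from all genes in this was not tested. With 1 library left out, members called ran from 1 to 5 for ATRA in SKNO-1, 3 to 4 for both against ATRA and 3 to 4 for both against Corin in SKNO-1, 0 to 5 for departures in SKNO-1, 0 to 2 for Corin and 3 to 4 for both against ATRA in U-937, and 3 to 5 for the ATRA difference between lines. Leaving out libraries lost 45 of 532 values their call and gained 16; the cause was not tested. Among list genes called against DMSO, in a check added after the data were seen, 137 of 1016 values lost the call and 21 moved by over 1.5-fold. Same-numbered libraries correlated between -0.488 and 0.236 in SKNO-1 and -0.447 and 0.418 in U-937 over 6 pairs of groups each, so the numbers were not taken as pairing. The block removed the calls of MYB for both against Corin (adjusted p = 0.0644) and of the departures of SOX4 in SKNO-1 (0.086) and KIT in U-937 (0.0509). With library totals the median gene shifted by -0.12 for both agents and -0.13 for both against Corin in U-937. Depth limits CD34 and PROM1 in each line and KIT in U-937.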
